A study of Mus musculus with 6 samples.

Results

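The transcription factors described here are 10 genes that help to set endothelial identity. They are the ETS factors Erg, Fli1, Ets1, Ets2 and Elk3, the SOXF factors Sox7, Sox17 and Sox18, the basic helix-loop-helix factor Tal1 and the zinc finger factor Gata2. They were chosen by name, and all 10 were found among the 24421 genes of the count table. The RNA came from retinal endothelium of mouse pups killed at postnatal day 7 (mixed BL6/CD1 strain background) and was sequenced in bulk. Every pup had floxed Smad4 and was injected with tamoxifen on postnatal day 1. In addition, the 3 Smad4-iECKO samples carried Cdh5-CreERT2, a tamoxifen-inducible Cre under the endothelial Cdh5 promoter, and the 3 Smad4f/f samples carried no Cre. Cre activity and loss of Smad4 therefore cannot be told apart. The labels do not state how many pups a sample holds.

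ETS factors bind DNA at a GGAA core and are found at most endothelial enhancers and promoters. ERG and FLI1 are close relatives that keep endothelial genes active. SOXF factors act with Notch and VEGF signals in arterial specification and in the retinal vasculature, where SOX7, SOX17 and SOX18 can partly stand in for each other. TAL1 and GATA2 were first known from blood stem cells and also act in endothelium, where TAL1 binds E-boxes beside GATA sites. SMAD4 is the common partner of receptor SMADs in BMP and TGF-beta signalling.

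Factors of these families are known to act on each other's genes, so the promoter windows available for the members are shown with their motif matches. RefSeq start sites of build GRCm38.p6 gave 9 windows for 5 of the 10 members, each of the 250 bases before a start. The letters searched on both strands were GGAAG for ETS, AGATAA for GATA and ACAATG for SOX, printed in capitals. Of the 5 windows with a match, 4 are shown; the other, at Erg start 2, holds ETS letters alone. They lie at chr16:95459349-95459598 (minus strand), Erg start 3, at chr10:93311160-93311409 (minus strand) for Elk3, and at chr4:115056176-115056425 and chr4:115057561-115057810 (plus strand) for Tal1 starts 1 and 2.
Erg start 3: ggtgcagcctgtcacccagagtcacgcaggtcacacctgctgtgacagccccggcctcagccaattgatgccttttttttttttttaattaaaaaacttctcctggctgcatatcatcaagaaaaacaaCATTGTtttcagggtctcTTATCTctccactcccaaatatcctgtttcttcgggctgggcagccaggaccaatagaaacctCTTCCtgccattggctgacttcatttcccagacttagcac
Elk3: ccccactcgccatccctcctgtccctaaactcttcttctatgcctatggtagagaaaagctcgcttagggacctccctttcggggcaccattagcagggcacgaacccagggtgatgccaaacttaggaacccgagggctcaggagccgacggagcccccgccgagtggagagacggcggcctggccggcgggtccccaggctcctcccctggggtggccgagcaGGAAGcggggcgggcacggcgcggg
Tal1 start 1: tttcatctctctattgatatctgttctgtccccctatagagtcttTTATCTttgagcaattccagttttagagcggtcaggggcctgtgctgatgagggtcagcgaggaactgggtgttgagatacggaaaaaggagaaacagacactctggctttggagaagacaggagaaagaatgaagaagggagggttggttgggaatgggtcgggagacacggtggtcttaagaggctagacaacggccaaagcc
Tal1 start 2: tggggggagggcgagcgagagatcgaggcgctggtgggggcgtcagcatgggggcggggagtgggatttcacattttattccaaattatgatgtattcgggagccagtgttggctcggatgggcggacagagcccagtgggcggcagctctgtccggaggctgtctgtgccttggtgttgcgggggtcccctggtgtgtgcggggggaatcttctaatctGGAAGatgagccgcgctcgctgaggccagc
The ETS letters were in 4 of the 9 member windows, against 64.1% of 32851 windows of all genes. The GATA letters were in 2, against 9.99%, and the SOX letters in 1, against 10.7%. The longer ETS form CCGGAAG was in 0 of 9, against 6.91%. An E-box (CANNTG) was in 1, the window of Erg start 3, against 66.2%. That Erg window was the one window of the 9 with all of the ETS, GATA and SOX letters. The Ets2 window and both Gata2 windows held none of these 3 motifs. A match is a stretch of letters and not evidence of binding.

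The libraries held 12633018 to 23164952 counts, apart from Smad4-iECKO replicate 2, which held 2233360. Each sample had 3 identical columns in the count table and was counted once. Replicates 1 and 3 of each group have titles that start with Lit38 and replicate 2 has one that starts with Lit40, which can be read as litter though the labels do not say so. They are called prefix 38 and prefix 40. The mean log2 CPM (counts scaled to library size, with edgeR's trimmed mean of M-values, TMM) of 18 endothelial identity genes, such as Pecam1, Cdh5 and Cldn5, was 8.69, 6.18 and 7.73 in the Smad4f/f libraries (replicates 1, 2, 3) and 7.06, 7.75 and 7.73 in the Smad4-iECKO libraries. These genes took 0.194% to 0.976% and 0.330% to 0.588% of counts by group, and genes of rods took 0.514% to 1.10% and 0.573% to 0.848%. Neural retina RNA was thus present in every library. In bulk RNA, fewer cells of a type and less RNA per cell cannot be told apart. Smad4 itself was at 140.0 ± 26.5 CPM in Smad4f/f and 119 ± 21.7 CPM in Smad4-iECKO (SD, n = 3 each). A count per gene can include exons that remain after deletion, so Smad4 does not check the genotype labels.

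In build mm10 (GENCODE M21), Sox17 lies at chr1:4490931-4497354, and several ETS genes lie in neighbouring pairs. Fli1 (chr9:32422204-32542861) is beside Ets1 (chr9:32636221-32757820), and Erg (chr16:95359169-95586593) is beside Ets2 (chr16:95702075-95721051). Sox7 is at chr14:63943673-63950732, Sox18 at chr2:181669836-181671640, Elk3 at chr10:93247414-93311135, Tal1 at chr4:115056426-115071755 and Gata2 at chr6:88193891-88207032. All 10 factors were expressed in every library, with counts from 43 (Tal1 in Smad4-iECKO replicate 2) to 12965 (Ets1 in Smad4f/f replicate 1). Per kilobase of merged exon, Ets1 and Sox18 were the most abundant, at 54.4 ± 36.2 and 53.5 ± 32.9 CPM per kb (SD over 6 libraries). Fli1 followed at 33.4 ± 26.1, Elk3 at 22.9 ± 11.4 and Erg at 15.5 ± 10.6 CPM per kb. Sox7 (15.2 ± 8.91), Ets2 (14.7 ± 6.93) and Sox17 (11.5 ± 9.97 CPM per kb) lay close together, and neighbours in this order differed by less than their spread. That spread includes differences between libraries that the genes share. Within every library Fli1 ranked above Elk3 and Elk3 above Erg, while the order of Erg, Sox7 and Ets2 changed between libraries. Tal1 (5.93 ± 3.40) and Gata2 (2.78 ± 1.83 CPM per kb) were the lowest pair in every library. Ets1 or Sox18 ranked first in each library.

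Among the ETS factors, mean levels were lower in Smad4-iECKO for all 5 genes, but the groups overlapped and none passed the test. Erg, the ETS factor that maintains VE-cadherin and claudin expression, was at 122, 16.7 and 62.2 CPM in Smad4f/f replicates 1, 2 and 3, and at 28.0, 47.4 and 47.2 CPM in Smad4-iECKO replicates 1, 2 and 3. Smad4f/f held both the highest and the lowest library, and the Smad4-iECKO values lay between them. For Erg the log2 fold change was -0.71 (SE 0.60), with an unadjusted p of 0.268 by edgeR's quasi-likelihood test and a Benjamini-Hochberg adjusted p of 0.9999.

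Fli1, which shares its DNA-binding preference with ERG, was at 292, 39.96 and 118 CPM in Smad4f/f and 63.3, 74.4 and 111 CPM in Smad4-iECKO. Its log2 fold change was -0.85, SE 0.61 (edgeR unadjusted p = 0.196). Ets1, an ETS factor of angiogenic endothelium and of lymphocytes, was at 1022, 136 and 533 CPM in Smad4f/f and 268, 399 and 409 CPM in Smad4-iECKO. Fli1 and Ets1 showed the same arrangement as Erg, with Smad4f/f replicate 1 highest and Smad4f/f replicate 2 lowest. Ets2, a target of RAS and MAP kinase signalling found in many cell types, had means of 96.1 ± 57.7 and 73.2 ± 17.2 CPM in Smad4f/f and Smad4-iECKO (SD, n = 3). Elk3, a ternary complex factor that can repress transcription, had means of 118 ± 73.2 and 90.2 ± 28.4 CPM. In Elk3, 6.95% of the merged exon bases overlap Cdk17 on the other strand, and the library kit does not keep strand.

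**Figure D1:**
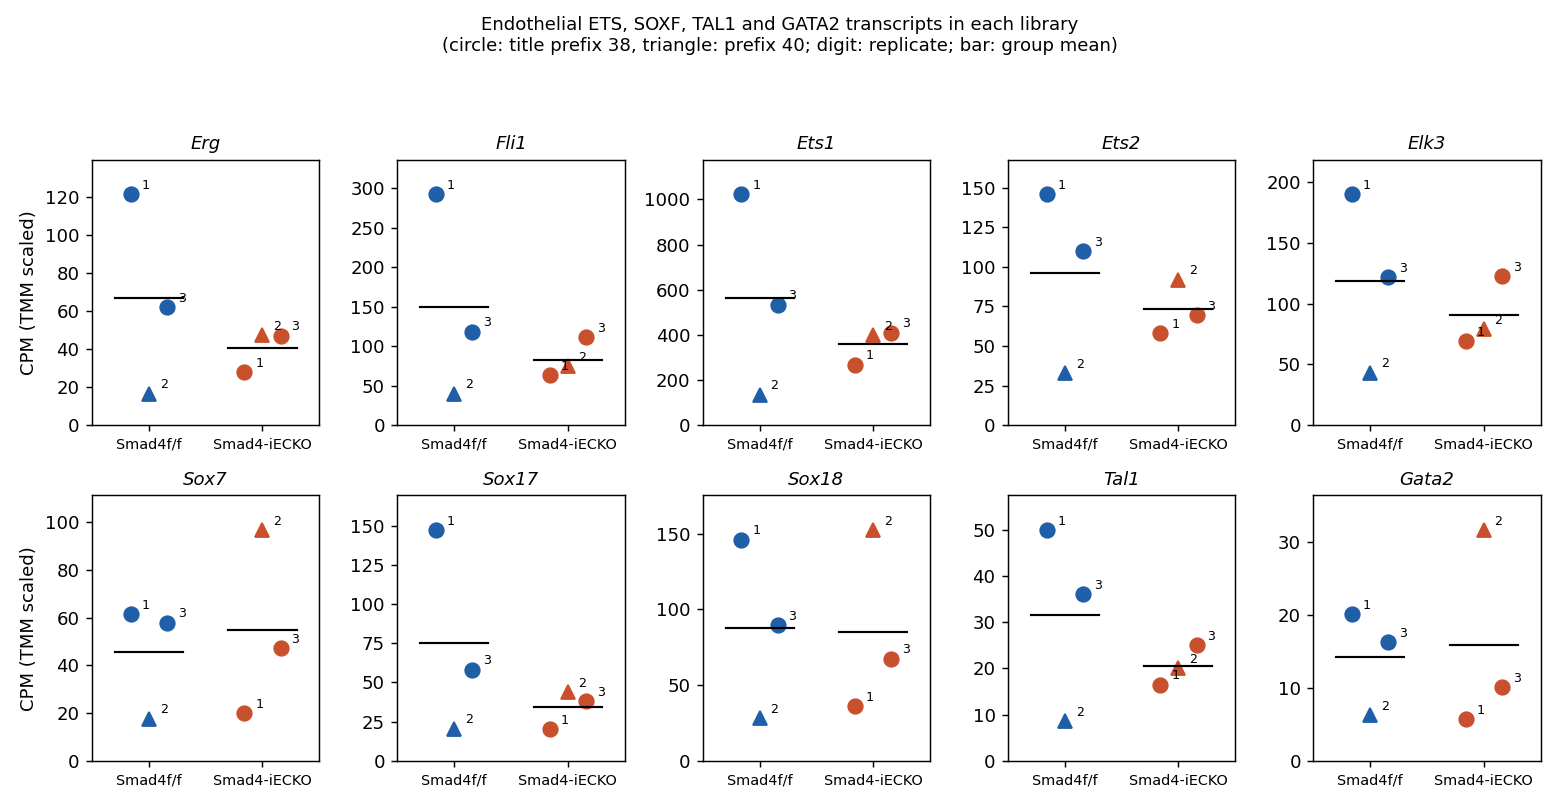
CPM of each factor (y axis, TMM-scaled, linear from 0) in the 3 Smad4f/f and 3 Smad4-iECKO libraries (x axis), with a bar at each group mean, circles for title prefix 38 and triangles for prefix 40. Smad4f/f replicate 1 is highest for 7 of the 10 factors and Smad4f/f replicate 2 lowest for 8, and in no panel are the groups apart.

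The SOXF genes did not share one pattern. Sox17, a factor of arterial endothelium, was at 147, 20.5 and 58.2 CPM in Smad4f/f and at 20.3, 43.7 and 38.2 CPM in Smad4-iECKO. Smad4-iECKO replicate 1 lay just below the Smad4f/f range, and the other Smad4-iECKO values lay in its lower part. The groups overlapped through Smad4f/f replicate 2. Its log2 fold change of -1.16 (SE 0.63) was the lowest of the 10 (edgeR unadjusted p = 0.102, adjusted p = 0.9999). In Sox17, 16.8% of the merged exon bases overlap a noncoding transcript on the other strand, whose reads cannot be told apart from those of Sox17.

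Sox18, a factor of blood and lymphatic endothelium, was at 146, 28.2 and 89.7 CPM in Smad4f/f and at 36.2, 152 and 67.5 CPM in Smad4-iECKO. Sox7 was at 61.5, 17.7 and 57.8 CPM in Smad4f/f and at 20.0, 96.7 and 47.2 CPM in Smad4-iECKO. In both genes the shallow Smad4-iECKO replicate 2 was the highest of the 6 libraries. The log2 fold changes were -0.06 (standard error 0.64) for Sox18 and 0.24 (standard error 0.61) for Sox7, within the spread. That of Sox18 was 0.15 (SE 0.91) when libraries were scaled to the endothelial genes.

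Tal1 and Gata2 were arranged differently. Tal1 was at 49.9, 8.52 and 36.0 CPM in Smad4f/f and at 16.4, 20.0 and 25.0 CPM in Smad4-iECKO, with a fold change of -0.62 on the log2 scale (SE 0.57). Gata2 was at 20.1, 6.25 and 16.2 CPM in Smad4f/f and at 5.72, 31.6 and 10.1 CPM in Smad4-iECKO, with a fold change of 0.10 on the log2 scale (SE 0.68). Tal1, like the ETS factors, was highest in Smad4f/f replicate 1 and lowest in Smad4f/f replicate 2, and Gata2, like Sox7 and Sox18, was highest in Smad4-iECKO replicate 2.

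By edgeR's quasi-likelihood test 0 of the 10 factors and 0 of 14362 genes tested passed an adjusted p of 0.05 (0.0% in either direction). The CPM of the groups overlapped for all 10, while 2.83% of all genes were lower and 2.49% higher without overlap. At an unadjusted p under 0.05 there were 0 of the 10 and 188 of all genes (1.31%). DESeq2 called 12 genes (0.0458% higher, 0.0153% lower) and limma-voom with sample quality weights 8 (0.0557%, all higher), with 0 of the 10 in each. Log2 fold changes were negative for 8 of the 10. The count depended on single libraries. Without Smad4f/f replicate 1, 2 of 10 were negative. Without Smad4f/f replicate 2 all 10 were negative, and 5 of them (Erg, Fli1, Ets1, Sox17 and Tal1) had an unadjusted p under 0.05, against 2.06% of all genes, with 0 called by edgeR. All 10 were also negative without Smad4-iECKO replicate 2, and 0 of them had such a p. Over all genes tested the median log2 fold change was -0.02.

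For this contrast the authors' deposited table listed Sox17 as lower, with a log2 fold change of -0.85 (SE 0.30) and an adjusted p of 0.0348. It was the one factor of the 10 past 0.05 there, against 5.69% of 14225 genes lower and 7.7% higher. Fli1 had an adjusted p of 0.120 in the authors' deposited table, and the other 8 had adjusted p-values of 0.200 to 0.963. DESeq2 run on all 18 columns, so that each sample entered 3 times, with a fold change prior, gave fold changes within 0.00603 of that table for the 10 factors and standard errors 0.991 to 0.994 times as large. In that fit Sox17 had an adjusted p of 0.0378. Without the prior, Sox17 was again the one factor called (7.28% of genes were higher and 4.79% lower). With each sample entered once, DESeq2 gave Sox17 an unadjusted p of 0.0709 and an adjusted p of 0.9996.

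The levels of the factors went up and down with the endothelial content of the libraries, read here as the mean of the 18 endothelial genes. Over the 6 libraries the SD of log2 CPM of the 10 factors ran from 0.75 (Elk3) to 1.06 (Sox17), with a median of 0.97, and the mean of the 18 endothelial genes had an SD of 0.84. After that mean was subtracted in each library, the SD was smaller for all 10 factors, with a median of 0.31. Over all 14362 genes it became smaller for 13.1%. Ets1 and Erg had the smallest remaining SDs, 0.20 and 0.21, while Sox7 (0.59) and Gata2 (0.68) kept the largest. The levels of Ets1 at equal endothelial content ran from 341 to 461 CPM, a 1.35-fold range, against a 7.52-fold range before.

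**Figure D2:**
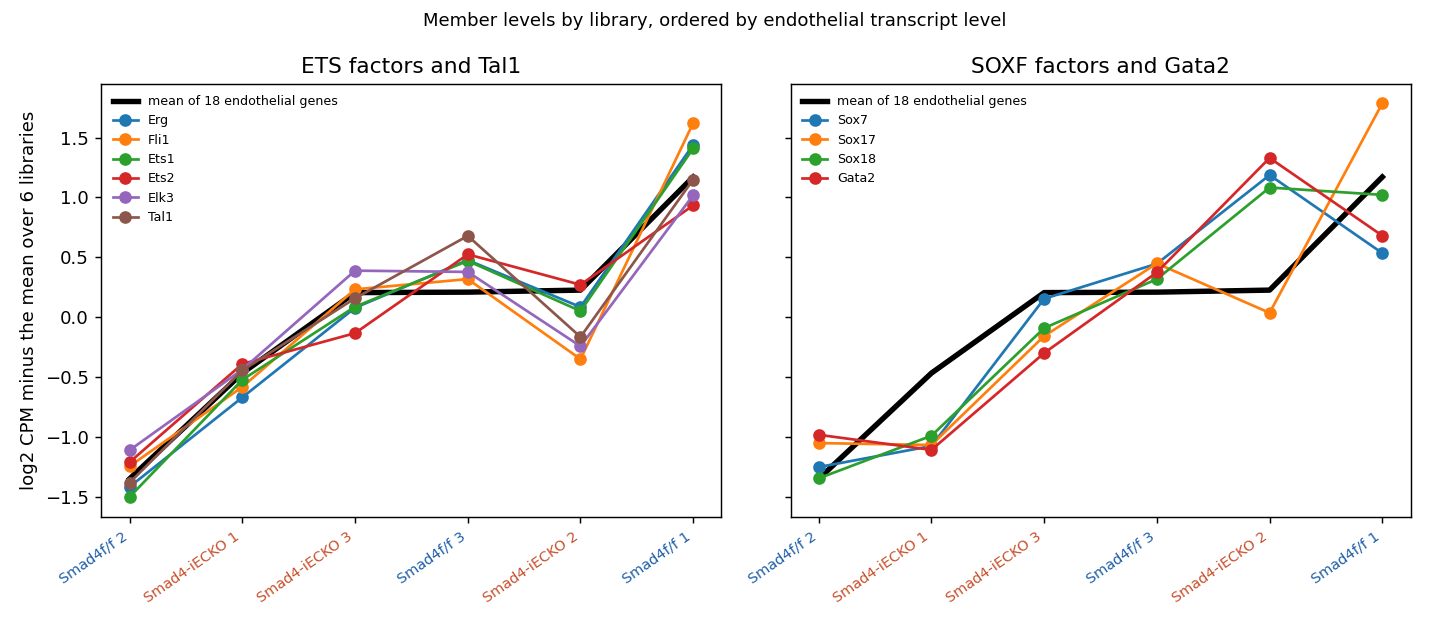
Log2 CPM of each factor minus its mean over the 6 libraries (y axis), with libraries (x axis) ordered by the mean of 18 endothelial genes (black line), for the ETS factors and Tal1 (left) and the SOXF factors and Gata2 (right). The left curves keep close to the black line, with Fli1 the farthest below it in Smad4-iECKO replicate 2, whereas Sox7, Sox18 and Gata2 stand above it in Smad4-iECKO replicate 2.

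The profiles over the 6 libraries were compared by the root mean square difference of centred log2 CPM, among 11998 other genes with a mean of at least 5 CPM. Erg and Ets1 were each other's nearest gene, at a difference of 0.0719. For Fli1 the nearest gene was Klhl6 (0.0627), and Erg ranked 25th. For Tal1 the nearest was Flt1, the VEGF receptor 1 gene (0.0965), with Ets1 ranked 7th. For Sox18 it was Tie1, an orphan receptor of endothelium (0.106). For Sox7 it was the adenosine receptor gene Adora2a (0.116), with Gata2 ranked 18th and Sox18 20th. The nearest genes were Slc39a8 for Sox17 (0.151), Usp43 for Gata2 (0.109), Clic4 for Elk3 (0.0901) and Rras2 for Ets2 (0.0981). These are descriptions over 6 libraries that share the differences in endothelial content.

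The direction of the genotype difference was opposite in the title prefixes. Within prefix 38 (2 libraries per group), 9 of the 10 factors were lower in both Smad4-iECKO libraries than in either Smad4f/f library, where 14.9% of all genes were. Elk3 was the exception, at 122 CPM in both Smad4f/f replicate 3 and Smad4-iECKO replicate 3. The differences of mean log2 CPM in prefix 38 ran from -1.73 (Sox17) to -0.72 (Elk3). By edgeR on these 4 libraries 8 factors had an unadjusted p under 0.05 (all except Elk3 and Sox7, against 4.13% of all genes), and each had an adjusted p of 0.999. In the prefix 40 pair (1 library per group, no test) all 10 were higher in Smad4-iECKO, where 47.5% of all genes were, with log2 ratios from 0.87 (Elk3) to 2.44 (Sox7). For all genes, 8.96% were lower without overlap in prefix 38 and higher in prefix 40. An interaction of genotype and prefix passed for Ets2, Sox18 and Gata2 and for 3.84% of all genes on the TMM scale.

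The endothelial mean moved the same way, from 8.69 and 7.73 in Smad4f/f to 7.06 and 7.73 in Smad4-iECKO within prefix 38, and from 6.18 to 7.75 in prefix 40. After it was subtracted in each library, the differences in prefix 38 ran from -0.91 (Sox17) to 0.10 (Elk3), and those in prefix 40 from -0.71 (Elk3) to 0.86 (Sox7). The prefix 40 difference was then negative for 7 factors and positive for Sox7, Sox18 and Gata2 (9.74% of all genes were positive). In prefix 38, 6 of the 10 were then lower without overlap, against 1.43%. In edgeR on prefix 38 with the endothelial scaling, 0 of the 10 were called or had an unadjusted p under 0.05 (0.0137% of genes called, all higher, and 3.53% at that unadjusted p).

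**Figure D3:**
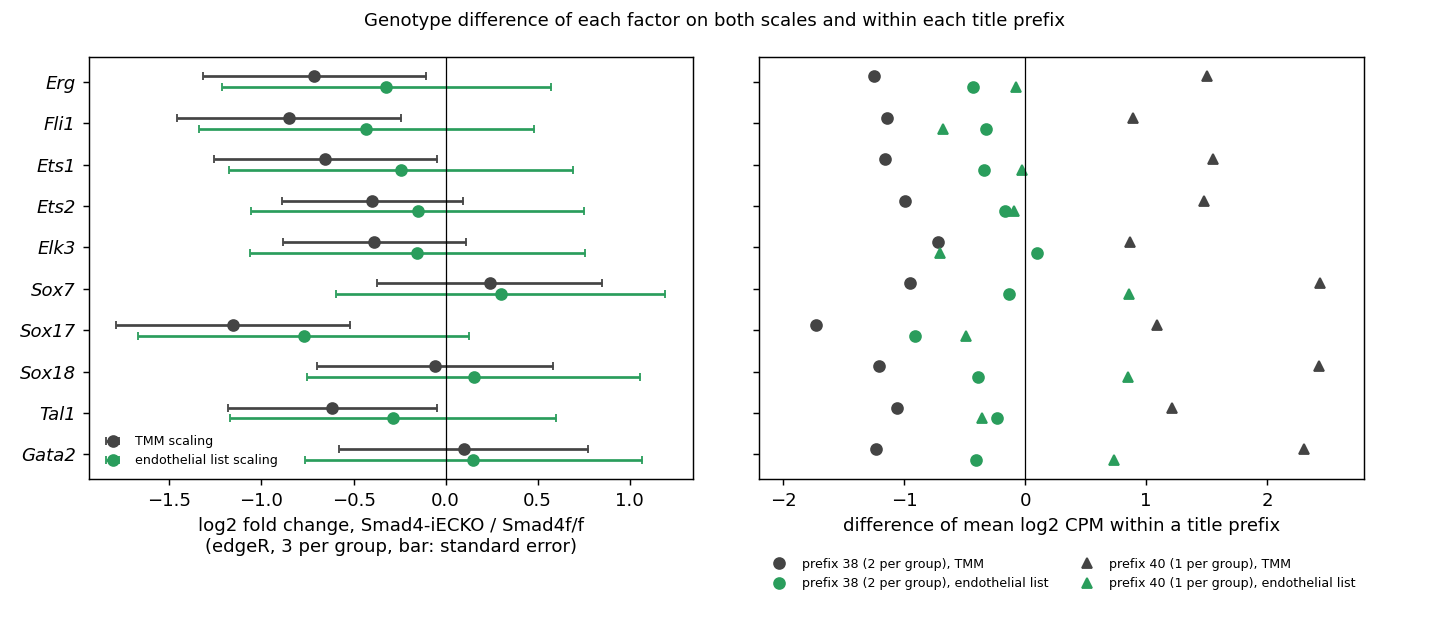
Left, edgeR log2 fold change of each factor with its standard error (x axis, 3 libraries per group), with TMM scaling and with scaling to the endothelial list. Right, difference of mean log2 CPM (x axis) within prefix 38 (circles) and within the prefix 40 pair (triangles) on both scales. The dark symbols lie on opposite sides of 0 in the title prefixes for all 10 factors, from -1.73 to -0.72 in prefix 38 and from 0.87 to 2.44 in prefix 40.

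At equal endothelial content, Sox17, Erg and Fli1 were lower in all 3 Smad4-iECKO libraries than in any Smad4f/f library. Some of the 18 endothelial genes, such as Tek and Flt1, are given by the literature as targets of these factors. The scale is thus not independent of the factors and does not measure cell number. Sox17 was at 65.4, 52.2 and 50.3 CPM in Smad4f/f and at 28.0, 37.3 and 33.1 CPM in Smad4-iECKO, when libraries were scaled to the same endothelial mean. The gap between the groups was wider than the Smad4-iECKO range and narrower than the Smad4f/f range. On the log2 scale relative to the endothelial mean, Sox17 was at -1.72 ± 0.20 and -2.49 ± 0.21 (SD, n = 3), a difference of -0.77.

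Erg was at 54.0, 42.4 and 53.8 CPM in Smad4f/f and at 38.7, 40.5 and 40.9 CPM in Smad4-iECKO on this scale. The gap between the groups was small, since Smad4f/f replicate 2 lay close to the Smad4-iECKO libraries. Fli1 was at 129.7, 102 and 102 CPM in Smad4f/f and at 87.4, 63.6 and 96.6 CPM in Smad4-iECKO, again with a narrow gap. The log2 differences were -0.31 for Erg and -0.44 for Fli1. By edgeR with the endothelial scaling the log2 fold changes were -0.32 and -0.43, where the median of all genes was -0.30.

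A two-sided exact permutation test gave p = 0.1 for each of Sox17, Erg and Fli1, and 10 factors were examined. No 3 against 3 design can go below this p. Any groups of 3 without overlap give it, so it only restates the lack of overlap. On this scale 0.836% of all genes were lower and 1.94% higher without overlap. Most genes, unlike the factors, had a larger SD after the subtraction, so the background is drawn from wider spreads. Of the 18 endothelial genes themselves, 2 were lower (Tek and Flt1) and 2 higher without overlap. With the endothelial scaling in edgeR, 0 of the 10 factors and 0 of all genes passed (0.0% in either direction, 0.285% at an unadjusted p under 0.05), and the log2 fold change of Sox17 was -0.77, SE 0.90 (unadjusted p = 0.390, adjusted p = 0.9999). With the endothelial mean as a covariate, added after the data were seen, the log2 fold change of Sox17 was -0.77, SE 0.27 (edgeR unadjusted p = 0.0223, adjusted p = 0.999). DESeq2 with the endothelial scaling called 1 gene (0.00509%, lower) and 0 of the 10.

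With a shorter reference list, Sox17, Erg and Fli1 were again lower without overlap. Its 6 genes are all among the 18 endothelial genes, so it is not an independent check. The other 7 factors overlapped at equal endothelial content. Ets1 was at 454, 346 and 461 CPM in Smad4f/f against 370.0, 341 and 355 CPM in Smad4-iECKO. Sox18 was at 64.9, 71.9 and 77.6 CPM against 49.9, 130.3 and 58.5 CPM, and Gata2 at 8.93, 15.9 and 14.0 CPM against 7.90, 27.0 and 8.78 CPM. With Smad4-iECKO replicate 2 left out, Sox18 and Gata2 were lower without overlap as well, 5 of the 10 in all, against 1.3% of all genes. There were 4 of the 10 without Smad4f/f replicate 1 (Ets2 added, 3.02% of all genes), without Smad4f/f replicate 2 (Ets1 added, 0.919%) and without Smad4-iECKO replicate 1 (Tal1 added, 3.26%).

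Within the SOXF family the share held by Sox17 was lower in each Smad4-iECKO library. Sox17 made up 22.1%, 15.8% and 14.3% of the summed SOXF level per kilobase in Smad4f/f, against 13.01%, 6.91% and 12.5% in Smad4-iECKO. All 3 Smad4-iECKO values lay below all Smad4f/f values (17.4 ± 4.11% against 10.8 ± 3.39%, SD, n = 3, two-sided exact permutation p = 0.1, the smallest possible). That p again only restates the lack of overlap. Sox18 made up 64.6%, 64.3% and 65.1% in Smad4f/f, against 68.4%, 71.0% and 65.1% in Smad4-iECKO, with a narrow gap. Sox7 overlapped, at 17.9 ± 3.99% and 21.0 ± 2.09%.

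The count ratio of Sox17 to Sox18 needs no scaling between libraries. It was 1.008, 0.726 and 0.649 in Smad4f/f, against 0.561, 0.287 and 0.566 in Smad4-iECKO. The ratio was lower in all 3 Smad4-iECKO libraries, and it was chosen after the values were seen. Of the 45 log2 ratios between pairs of the 10 factors, 2 did not overlap between the groups (4.44%), Sox17 to Sox18 and Erg to Sox17. Among 153 pairs of the 18 endothelial genes 26.8% did not overlap. The count ratio of Ets1 to Erg was the steadiest shown, between 8.16 and 9.55 in all libraries.

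**Figure D4:**
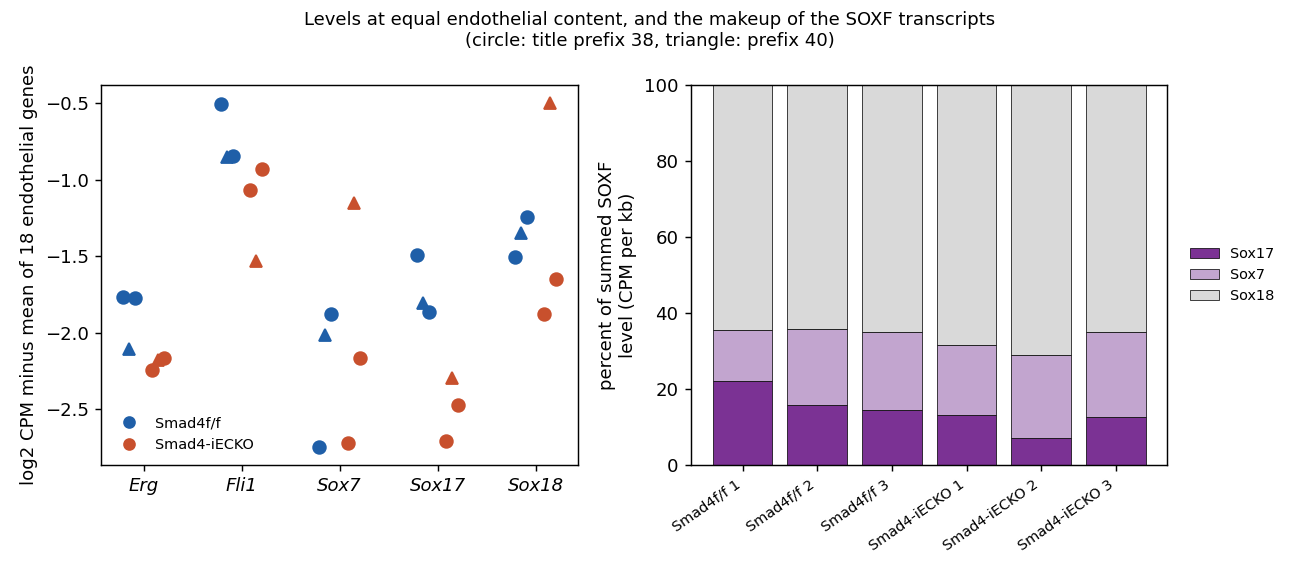
Left, log2 CPM minus the mean of 18 endothelial genes (y axis) for 5 factors in each library, with circles for prefix 38 and triangles for prefix 40. Right, percent of the summed SOXF level per kilobase (y axis) held by each SOXF gene in each library (x axis). Sox17 holds 14.3% to 22.1% in Smad4f/f and 6.91% to 13.01% in Smad4-iECKO.

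Of the related factors listed outside the 10, 0 were called by edgeR, DESeq2 or limma-voom. Lists were chosen with earlier results of these data known, so they are given by counts and medians. The median of all genes tested was -0.02, and -0.30 with the endothelial scaling. Of 15 other ETS genes tested of 21 listed, 10 had positive and 5 negative log2 fold changes (median 0.18, and -0.08 with the endothelial scaling). Etv4, an ETS factor downstream of FGF signalling, was at 3.90 ± 1.76 CPM in Smad4f/f and 9.98 ± 3.51 CPM in Smad4-iECKO. Spib, known from B cells and plasmacytoid dendritic cells, was at 0.432 ± 0.240 and 3.51 ± 2.58 CPM, and Spdef at 0.388 ± 0.439 and 3.17 ± 4.12 CPM. Spdef was at 1.22, 7.90 and 0.399 CPM in Smad4-iECKO, highest in the shallow replicate 2, where a count of 3 was 1.34 CPM. Etv4 and Spib were higher without overlap on the TMM scale (2 of the 15, against 2.49% of all genes). Their edgeR unadjusted p-values were 0.0330 and 0.0127 (adjusted p = 0.9999). At equal endothelial content only Spib was higher without overlap (1.94% of all genes). Of 12 other SOX genes tested of 16, 10 were positive (median 0.27, and -0.09 with the endothelial scaling). Sox9, a factor of Mueller glia and progenitors, was at 19.6 ± 7.82 and 31.1 ± 4.28 CPM. Gata6 was the 1 other GATA gene tested of 5, at 2.35 ± 2.30 and 0.477 ± 0.572 CPM.

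TAL1 acts in a complex with LMO2, LDB1 and E proteins. Of 10 genes listed with this complex, which include the TAL1 relative Lyl1, 4 were positive and 6 negative (median -0.11, and -0.44 with the endothelial scaling). Runx1, a factor of blood formation, was at 5.36, 2.39 and 3.14 CPM in Smad4f/f and 7.78, 12.6 and 10.3 CPM in Smad4-iECKO. Its groups did not overlap (2.49% of all genes were higher in this way), and its log2 fold change was 1.48, SE 0.51 (edgeR unadjusted p = 0.0180, adjusted p = 0.9999). Lyl1, the closest relative of TAL1, was at 6.94 ± 4.90 and 3.14 ± 1.39 CPM, and Cbfa2t3 at 25.9 ± 8.16 and 39.5 ± 14.4 CPM. Lyl1 overlapped on the TMM scale. At equal endothelial content Lyl1 was lower and Runx1 higher without overlap (0.836% of all genes were lower and 1.94% higher).

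Of 22 other endothelial transcription factors, 5 were positive and 17 negative (median -0.32, and -0.12 with the endothelial scaling, where the median of all genes was -0.30). Foxf2, a factor of brain endothelium and pericytes, was at 81.2 ± 62.3 and 39.0 ± 16.3 CPM. Lef1, a nuclear effector of WNT signalling, was at 50.3 ± 37.4 and 25.6 ± 5.39 CPM. Both overlapped on the TMM scale and were lower without overlap at equal endothelial content, and Hlx was higher in this way (0.836% of all genes were lower and 1.94% higher). Foxf1 was at 3.60 ± 4.87 and 1.54 ± 0.405 CPM.

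Genes that the literature gives as targets of these factors had log2 fold changes of both signs. Of 20 ETS targets, 11 were positive and 9 negative (median 0.04, and 0.31 with the endothelial scaling). The positive ones included the tip cell genes Angpt2 (21.4 ± 15.1 and 101 ± 22.2 CPM), Esm1 (7.79 ± 5.97 and 39.0 ± 2.45 CPM) and Apln (108 ± 91.5 and 366 ± 42.7 CPM) in Smad4f/f and Smad4-iECKO. At equal endothelial content 6 of the 20 were higher without overlap (these 3, Notch4, Robo4 and Mmrn2) and 2 lower (Tek and Flt1), against 1.94% and 0.836% of all genes. Robo4, Mmrn2, Tek and Flt1 are themselves among the 18 endothelial genes. Of 10 SOXF targets, 4 were positive and 6 negative (median -0.44, and -0.20 with the endothelial scaling). Gja4, the arterial connexin 37 gene, was at 141, 34.7 and 78.5 CPM in Smad4f/f and 19.2, 42.8 and 34.8 CPM in Smad4-iECKO. Like Sox17 and Tek, it was highest in Smad4f/f replicate 1 and lowest in Smad4-iECKO replicate 1. Tek, the TIE2 receptor gene, was at 276 ± 202 and 108 ± 33.4 CPM, and the adhesion gene Vcam1 at 18.9 ± 11.2 and 7.70 ± 5.19 CPM. Gja4, Tek, Vcam1 and Flt1 were lower without overlap at equal endothelial content, and Robo4 was higher. Of 8 GATA2 targets, 1 was positive (Vwf, at 388 ± 261 and 663 ± 407 CPM) and 7 negative (median -0.54, and -0.11 with the endothelial scaling). Nrp1, a VEGF and semaphorin co-receptor, was among these, at 223 ± 142 and 149 ± 26.2 CPM. Over all genes edgeR called 0 of the targets. DESeq2 called Angpt2 (adjusted p = 0.0239) and Esm1 (adjusted p = 0.0265), and limma-voom with sample quality weights called the same pair (adjusted p = 0.00616 and 0.00768). Several targets stand in more than 1 list, and Tal1, itself one of the factors described here, is among the GATA2 targets.

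Some of the 10 factors are also expressed outside endothelium, Fli1 in microglia and platelets, Ets1 in lymphocytes and Tal1 and Gata2 in blood cells. The 12 microglia marker genes took 0.00393% to 0.00628% of counts in Smad4f/f and 0.00828% to 0.0131% in Smad4-iECKO, with C1qa and P2ry12 at 0 in the shallow Smad4-iECKO replicate 2. Of these 12, 11 had positive log2 fold changes, among them Itgam (2.29 ± 0.984 and 8.82 ± 3.32 CPM), Laptm5 (7.004 ± 1.59 and 18.6 ± 8.88 CPM) and C1qc (4.19 ± 2.16 and 11.3 ± 3.91 CPM). The erythroid and megakaryocyte list took 0.00151% to 0.00563% and 0.00217% to 0.00560%, with its 4 haemoglobin genes listed at 0 in every library. The lymphocyte list took 0.000380% to 0.000689% and 0.000448% to 0.00168%. The part of such cells in the levels of the factors was not tested. Pericyte genes took 0.0656% to 0.288% and 0.114% to 0.1999%, and fibroblast genes 0.0116% to 0.0443% and 0.0314% to 0.0773%. Among them the collagen gene Col1a2 was at 23.0 ± 4.84 and 129.8 ± 143 CPM, with Lum and Dpt listed at 0 in every library. Astrocyte and Mueller glia genes took 0.0925% to 0.164% and 0.106% to 0.172%. Of these 10 genes, 8 had positive and 2 negative log2 fold changes. Pax2, a gene of retinal astrocytes, was at 2.53 ± 0.705 and 10.4 ± 7.76 CPM, while Glul went the other way, at 422 ± 220 and 240 ± 68.2 CPM. Retinal neuron genes took 0.138% to 0.285% and 0.138% to 0.2535%.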

How the data were processed

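The RNA was purified with a GeneJet kit before TruSeq v2 library construction, per the labels' protocols. The tools STAR and DESeq2 and build mm10 are named, without versions, per the submitters' processing notes. How reads were assigned to genes, and with which annotation, is not stated by these sources. The deposited count table held read counts per gene that the authors had not normalized, in 18 columns, 3 identical ones per sample. The authors' deposited comparison held a mean normalized signal, log2 fold changes with standard errors, a test score and p-values, per the file headers.

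The genotype label set the groups. Replicate numbers follow accession order and pair nothing, and p-values measure only the spread between these samples. The main test was edgeR 4.0.16 (R 4.3.3), quasi-likelihood, TMM scaling, filterByExpr (minimum count 10, minimum total 15), adjusted over 14362 genes. CPM were TMM-scaled, and log2 CPM used a prior count of 2. For the endothelial scaling, library sizes were multiplied so that 18 endothelial genes had the same mean log2 CPM in each library. DESeq2 1.42.0 and limma 3.58.1 were alternatives. A count of 3 was 1.34 CPM in Smad4-iECKO replicate 2 and 0.130 to 0.237 CPM in the others (counting error only). Exon lengths are from GENCODE M21 (mm10). Only the edgeR fit with TMM scaling was tested on simulated counts, which did not include differences in endothelial content between libraries. Figures used matplotlib 3.10.9.

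Members and lists were chosen with earlier results of these data known. Genes named were the 10 factors, Smad4, up to 3 genes of each list with the smallest edgeR p and the nearest profile genes. The list genes of photoreceptors, neurons, pericytes, fibroblasts, lymphocytes, platelets and astrocytes that the rule gave, and the further profile neighbours, are not all named.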

Additional observations from a re-analysis of the deposited data

Results flagged for a closer look

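The genotype difference of 3 factors differed between the title prefixes, by an edgeR interaction of genotype and prefix with TMM scaling, added after the data were seen. The log2 fold change in prefix 40 minus that in prefix 38 was 2.49 for Ets2 (adjusted p = 0.0455), 3.62 for Sox18 (adjusted p = 0.0447) and 3.54 for Gata2 (adjusted p = 0.0477). Of all 14362 genes, 3.84% passed. Prefix 40 held 1 library per group, which was assumed to vary like those of prefix 38. The other 7 factors had differences above 0 with adjusted p-values of 0.0518 to 0.164. With libraries scaled to the endothelial genes, the differences were 0.09, 1.25 and 1.22 for Ets2, Sox18 and Gata2 (adjusted p = 0.957, 0.444 and 0.416), where 2589 genes passed.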

How the results depend on the processing

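The count of genes called was 0 with TMM, and 12 with DESeq2, 8 with limma-voom with sample quality weights, 2235 with DESeq2 on all 18 columns and 2178 with a fold change prior added. The count of the 10 factors called was 0 with TMM and 1 (Sox17) in both fits on 18 columns, with log2 fold changes of -1.14 and -0.85. It was 0 in all other fits run, also when each library was left out. Of 160 refits of the 10 factors set against the main TMM fit, some of them with other scalings, 139 kept direction and call and 19 turned. Beside those that leave out a library, they were Sox7 with limma-voom (-0.55) and in prefix 38 alone (-0.85), Sox18 with endothelial scaling (0.15) and with the endothelial covariate (0.14), and Gata2 with limma-voom (-0.76), with the title prefix as a block (-0.15) and in prefix 38 alone (-1.22). Of 100 refits on the endothelial scale 10 turned, among them in prefix 38 alone Elk3 (0.090), Sox7 (-0.17), Sox18 (-0.39) and Gata2 (-0.46), and Gata2 with the prefix block (-0.060). The cause was not tested.

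Leaving out each library in turn gave log2 fold changes from -1.18 to 0.043 for Erg, -1.31 to 0.068 for Fli1, -1.12 to 0.094 for Ets1, -0.81 to 0.028 for Ets2 and -0.79 to 0.13 for Elk3. They ran from -0.46 to 0.64 for Sox7, -1.61 to -0.22 for Sox17, -0.78 to 0.51 for Sox18, -1.07 to -0.12 for Tal1 and -0.86 to 0.52 for Gata2. The upper ends of Erg, Fli1, Ets1, Ets2, Elk3, Sox17 and Tal1 came from leaving out Smad4f/f replicate 1. On the endothelial scale they ran from -0.43 to -0.27 for Erg, -0.56 to -0.27 for Fli1, -0.37 to -0.17 for Ets1, -0.29 to -0.02 for Ets2, -0.29 to 0.014 for Elk3, -0.25 to 0.60 for Sox7, -0.87 to -0.64 for Sox17, -0.40 to 0.40 for Sox18, -0.37 to -0.10 for Tal1 and -0.63 to 0.45 for Gata2. No paired analysis was possible because replicate numbers come from accession order and pair nothing; the block used above is the title prefix, which called 0 of the 10 factors. The depth of Smad4-iECKO replicate 2, 2233360 counts, limits its values for Tal1 (43 counts) and Gata2 (68 counts).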
